A study of Saccharomyces cerevisiae with 6 samples.

Results

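The 10 genes described here encode amino acid permeases of the yeast plasma membrane, *GAP1*, *AGP1*, *BAP2*, *BAP3*, *TAT1*, *TAT2*, *GNP1*, *CAN1*, *LYP1* and *DIP5*. They were taken by gene name from a table of 7126 genes, in which all 10 were found. RNA from 3 colonies of a *kcs1*-S537A,S646A strain was compared with RNA from 3 colonies of a strain with wild-type *KCS1*, to ask whether a pair of serines of the inositol polyphosphate kinase Kcs1, both replaced by alanine in this allele, affect transcript levels. Both strains are diploids of the filamentous Σ1278b background with both chromosomal copies of *KCS1* deleted, and both list the *ura3-52*, *leu2Δ0* and *trp1-1* alleles. They differ in the allele of *KCS1* on a low-copy *URA3* plasmid, pRS416. Cells were grown in liquid medium with little ammonium sulfate for about 20 h. The low-nitrogen recipes of the authors include amino acids, to complement auxotrophy or as a dropout mix. Which amino acids this medium held is not given in the sources used here. All colonies with an allele came from 1 strain, so the allele cannot be told apart from other differences between the strains. The *p*-values measure the spread between these colonies.

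Amino acid permeases of this family import amino acids together with protons. Gap1 takes up nearly all amino acids and is best known from cells on a poor nitrogen supply, where the GATA factors Gln3 and Gat1 activate its gene. A second control runs through the SPS sensor of Ssy1, Ptr3 and Ssy5, which detects amino acids outside the cell and releases the factors Stp1 and Stp2 to activate permease genes such as *AGP1*, *BAP2*, *BAP3*, *TAT1* and *GNP1*.

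GATA factors bind DNA at the word GATAAG, which was searched on both strands in the 500 bases before each start codon in the R64 reference genome. The reference is that of strain S288C, not of Σ1278b. *GAP1* had 4 matches, *CAN1* had 3 and *AGP1* had 2, and the other 7 permease genes had none in this window. Of 6000 windows of the same length, 22.8% had at least 1 match, 3.6% at least 2 and 0.55% at least 3. The matches are printed in capitals, 5′ to 3′ on the strand of the gene, because they set these 3 genes apart from the other members in sequence. In *CAN1* the matches lie close together without overlap.
*GAP1* site 1, chrXI:514582-514611, plus strand: ccatttccttttGATAAGgggtcgttggtg
*GAP1* site 2, chrXI:514708-514737, plus strand: gatttggtaactGATAAGattgttaaatgt
*GAP1* site 3, chrXI:514758-514787, plus strand: acgtccgattagCTTATCttctggagcaac
*GAP1* site 4, chrXI:514809-514838, plus strand: taaattaaacatGATAAGcgcatagttggg
*AGP1* site 1, chrIII:78331-78360, minus strand: catcgagtcataGATAAGcaggttgcagta
*AGP1* site 2, chrIII:78155-78184, minus strand: caaatcaatcctGATAAGacggctaagatg
*CAN1* sites 1 to 3, chrV:33716-33764, minus strand: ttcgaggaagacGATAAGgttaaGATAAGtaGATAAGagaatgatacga
The word TGACTC, which the amino acid starvation factor Gcn4 binds, was found once on either strand before *AGP1*, *BAP2* and *CAN1*, without overlap with a GATAAG match, and in 12.6% of all windows.

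The permease genes resemble each other, so the reads could in principle be shared between them. Over the 45 pairs of members, the coding sequences were identical at 60.5% to 72.6% of aligned bases, with a median of 63.6%. The closest pair was *AGP1* and *GNP1*, whose longest identical stretch had 47 bases, beginning at base 661 of *AGP1* and base 748 of *GNP1* counted from the start codon. *LYP1* and its neighbour *ALP1*, which encodes an arginine permease, also shared a stretch of 47 bases, from base 934 of *LYP1*. These runs are shown as the longest identical stretches among the members and *ALP1*. Matches that allow mismatched bases were not searched.
*AGP1* and *GNP1*: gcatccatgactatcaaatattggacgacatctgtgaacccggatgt
*LYP1* and *ALP1*: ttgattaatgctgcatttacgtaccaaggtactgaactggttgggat
No word of 50 bases in any of the 10 coding sequences occurred elsewhere on the nuclear chromosomes, and reads had 150 bases. *GNP1* is the only member that overlaps another row of the count table, YDR509W, by 219 bases. YDR509W had between 0 and 4 counts per sample, and how fragments in the overlap were assigned is not given in the sources used here.

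Between 20529351 and 22701020 fragments were counted in the mutant samples and between 17950923 and 20822332 in the wild-type samples. The plasmid gene *KCS1* (YDR017C) had 272.2, 796.7 and 347.4 CPM, counts relative to library size after scaling by the TMM factors of edgeR, in the mutant, against 366.7, 309.1 and 340.6 CPM in wild type, and the counts do not separate its alleles. In all 3 mutant samples, the genes of chromosome XIV were lower as a group, and in mutant replicate 1 those of chromosome VI were lower too, with a median log2 difference from the wild-type mean of -0.96 over 131 genes. The other 14 nuclear chromosomes had medians between -0.017 and 0.086 in every sample. The 15 mating-type and haploid markers, which a diploid represses, averaged between 2.26 and 54.4 CPM in the mutant and between 2.01 and 49.5 CPM in wild type. In wild type, 53.7% of the genes tested were above the highest of these markers. Of the 6 haploid-specific markers, 5 had a log2 fold change above 0 (median 0.30), 3 lay above wild type in all mutant samples, and 1, the G protein subunit gene *STE4*, was called (0.51, edgeR adjusted *p* = 0.028). Among all genes tested, 11.8% lay above wild type in all mutant samples and edgeR called 0.986% higher. None of the other 9 markers was called, and the part of these genes in the permease results was not tested.

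None of the 10 permease genes passed the test between the strains. With Benjamini-Hochberg adjustment across the 6083 genes tested and a threshold of 0.05, edgeR's quasi-likelihood test called 5.66% of genes (344), 0.986% higher and 4.67% lower in the mutant, and 0 of the 10 members. At an unadjusted *p*-value under 0.05 it gave 3 members, *LYP1*, *AGP1* and *DIP5*, against 20.1% of all genes. In the same 3 genes the mutant and wild-type samples did not overlap, against 26.6% of all genes. DESeq2 called 2 members, *LYP1* and *DIP5*, and 579 genes in all, whereas limma-voom called 0 members. The median log2 fold change of the 10 members was -0.01, with 5 above 0 and 5 below, and that of all genes tested was 0.015. All 10 passed the filter on low counts.

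**Figure D1:**
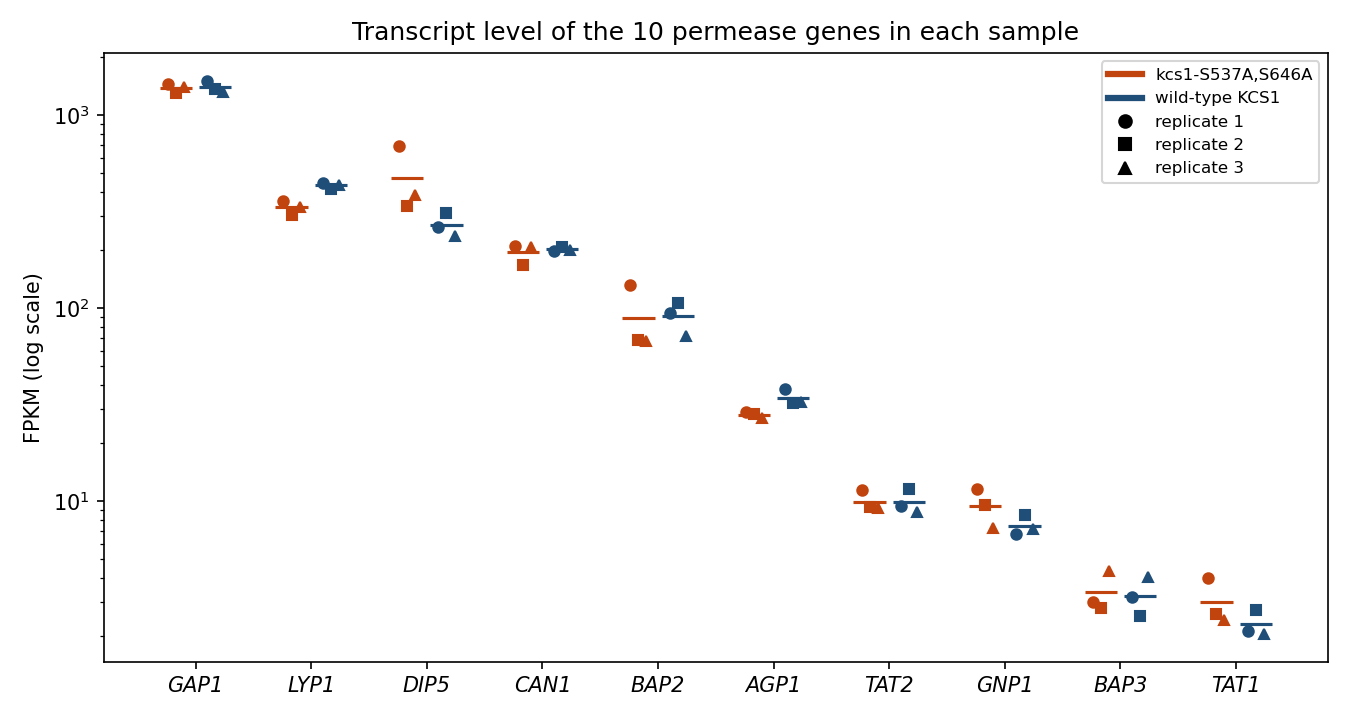
Transcript levels of the 10 permease genes in FPKM, on a log axis, with *kcs1*-S537A,S646A samples in orange to the left of wild-type *KCS1* samples in blue, 1 symbol per replicate, and a line at each mean. *GAP1* lies highest in every sample, with a lowest value of 1299 FPKM, *BAP3* and *TAT1* lie lowest, up to 4.36 FPKM, and *LYP1*, *AGP1* and *DIP5* are the genes whose groups do not overlap.

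The permease genes differed far more from each other than between the strains. Levels per length were read from the deposited FPKM, fragment counts relative to gene length and sequencing depth. *GAP1* had the highest level, 1382 ± 75.6 FPKM in the mutant and 1403 ± 98.9 FPKM in wild type (SD, n = 3 each). In the mutant, *DIP5* followed with 472.4 ± 190 FPKM and *LYP1* with 334.3 ± 27.1 FPKM (SD, n = 3 each), and their ranges overlapped. In wild type, *LYP1* came before *DIP5*, with 433.6 ± 16.3 and 270.8 ± 37 FPKM (SD, n = 3 each), and their ranges did not overlap. In both strains the order below was *CAN1*, *BAP2*, *AGP1*, *TAT2*, *GNP1*, *BAP3* and *TAT1*. *CAN1* had 195.6 FPKM in the mutant and 202.4 FPKM in wild type, and *TAT1*, at the low end, had 3.02 FPKM in the mutant and 2.31 FPKM in wild type. Of these neighbours, *BAP3* and *TAT1* overlapped in both strains, and *TAT2* and *GNP1* overlapped in the mutant. The 10 genes together took 0.491%, 0.422% and 0.428% of the counts of the mutant samples, against 0.479%, 0.467% and 0.425% in wild type. *GAP1* alone made up 49.7% to 57.9% of these counts in the mutant and 55.4% to 58.5% in wild type.

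The broad-range permeases were *GAP1* and *AGP1*. *GAP1* (YKR039W, chromosome XI, 515063 to 516871) had 2617, 2350.1 and 2537 CPM in the mutant, against 2747, 2492 and 2385 CPM in wild type. The groups overlapped, and the log2 fold change of -0.02 (standard error 0.12, edgeR adjusted *p* = 0.94) had a 95% interval from 0.812-fold to 1.19-fold. *AGP1* (YCL025C, chromosome III, 76018 to 77919), a permease of low affinity for many amino acids, had 55.0, 53.9 and 51.5 CPM in the mutant, against 73.3, 61.7 and 62.0 CPM in wild type. All 3 mutant values lay below all wild-type values, as in 14.8% of all genes. The difference of -0.30 on the log2 scale (standard error 0.09, edgeR adjusted *p* = 0.12) did not pass the threshold.

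Permeases for branched-chain and aromatic amino acids overlapped between the strains, and none of these 4 genes passed the test. *BAP2* (YBR068C), which imports leucine, isoleucine and valine, had 241.0, 125.3 and 123.9 CPM in the mutant, against 173.2, 194.9 and 131.8 CPM in wild type. Mutant replicate 1 was the highest of the 6 samples and the other mutant samples were the lowest. Its log2 fold change of -0.03 had a standard error of 0.27 (edgeR adjusted *p* = 0.97), and without mutant replicate 1 it was -0.42 (adjusted *p* = 0.18). *TAT1* (YBR069C) encodes a permease for tyrosine and branched-chain amino acids. It lies 883 bases from *BAP2* on chromosome II, both on the minus strand, and had 143, 109 and 99 counts in the mutant and 73, 96 and 80 counts in wild type. This corresponds to 7.47, 4.84 and 4.53 CPM in the mutant, against 3.99, 5.08 and 3.81 CPM in wild type. For *TAT1* the log2 fold change was 0.38 with a standard error of 0.24 (edgeR adjusted *p* = 0.42), and 0.13 without mutant replicate 1. *BAP3* (YDR046C, chromosome IV) encodes a further branched-chain permease and had 5.48, 5.06 and 7.92 CPM in the mutant, against 5.79, 4.61 and 7.33 CPM in wild type. *TAT2* (YOL020W, chromosome XV), the high-affinity permease for tryptophan and tyrosine, had 20.3, 16.6 and 16.4 CPM in the mutant, against 16.8, 20.7 and 15.6 CPM in wild type. The groups overlapped for both genes, with log2 fold changes of 0.06 for *BAP3* and 0.0035 for *TAT2*. The 95% intervals ran from 0.709-fold to 1.53-fold for *BAP3* and from 0.796-fold to 1.26-fold for *TAT2*.

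*GNP1* (YDR508C, chromosome IV, 1466453 to 1468444) encodes the high-affinity glutamine permease. It had 23.2, 19.0 and 14.5 CPM in the mutant, against 13.6, 16.8 and 14.4 CPM in wild type. Mutant replicates 1 and 2 lay above all wild-type samples and mutant replicate 3 lay among them. Its log2 fold change was 0.34 with a standard error of 0.18 (edgeR adjusted *p* = 0.34), and 0.17 when mutant replicate 1 was left out.

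*DIP5* (YPL265W, chromosome XVI, 41043 to 42869), the permease for glutamate and aspartate, had the largest difference of the 10 genes. Its level was 1261, 622.4 and 706.9 CPM in the mutant, against 483.8, 568.0 and 433.7 CPM in wild type. All 3 mutant samples lay above all wild-type samples, as in 11.8% of all genes, and mutant replicate 1 stood well above the other mutant samples. On the log2 scale the difference was 0.80 (standard error 0.26), a 1.74-fold higher level with a 95% interval from 1.15-fold to 2.64-fold. The adjusted *p*-value was 0.13 from edgeR and 0.018 from DESeq2, so that the call depends on the test. Leaving out mutant replicate 1 gave a log2 fold change of 0.42 (edgeR adjusted *p* = 0.10), and over all alternatives the adjusted *p*-value lay between 0.018 and 0.37. As a share of the counts of all 10 permease genes, *DIP5* took 24.0%, 15.3% and 15.9% in the mutant, against 10.3%, 12.6% and 10.3% in wild type.

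**Figure D2:**
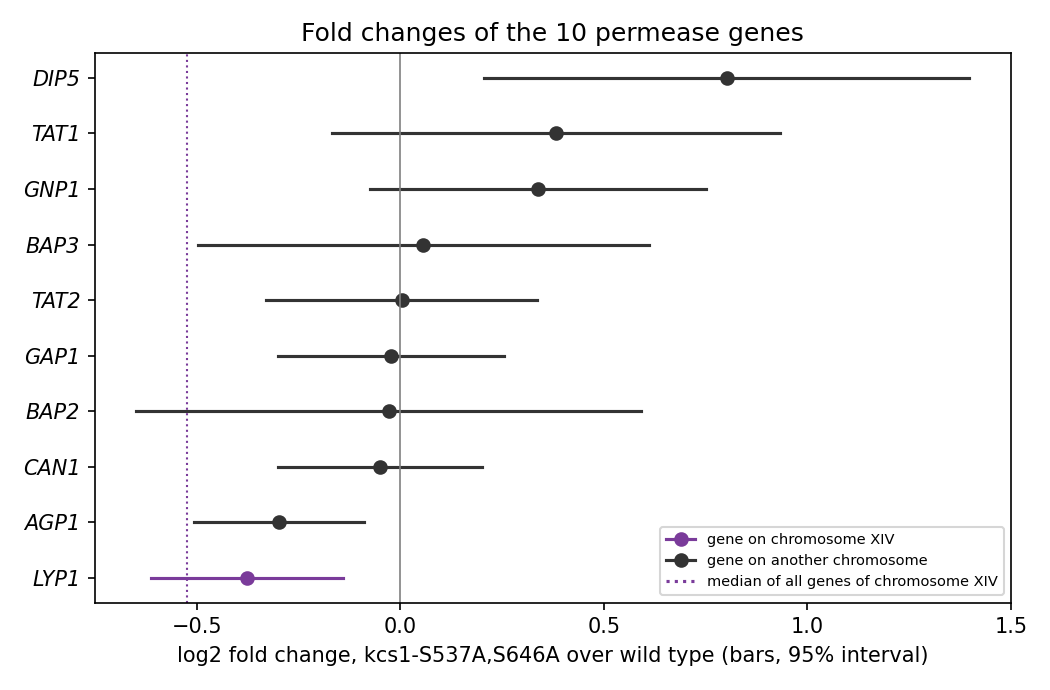
Log2 fold changes of *kcs1*-S537A,S646A over wild type for the 10 permease genes from edgeR, with 95% intervals as bars, and a dotted line at -0.53, the median of all genes tested on chromosome XIV. *DIP5* lies highest at 0.80, *LYP1* on chromosome XIV lies lowest at -0.38, and 7 of the 10 intervals include 0.

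The permeases for basic amino acids were *CAN1* and *LYP1*, related genes whose coding sequences were identical at 70.4% of aligned bases. *CAN1* (YEL063C, chromosome V, 31694 to 33466), the arginine permease, had 372.4, 298.9 and 369.7 CPM in the mutant, against 354.1, 369.6 and 353.8 CPM in wild type. Mutant replicate 2 was the lowest of the 6 samples, and mutant replicates 1 and 3 lay above all wild-type samples. The difference was -0.05 on the log2 scale with a standard error of 0.11 (edgeR adjusted *p* = 0.84). *LYP1* (YNL268W, chromosome XIV, 138550 to 140385), the lysine permease, had 661.2, 562.1 and 618.7 CPM in the mutant, against 826.8, 764.7 and 798.9 CPM in wild type. All mutant samples lay below all wild-type samples, as in 14.8% of all genes. On the log2 scale this was -0.38 with a standard error of 0.10 (edgeR adjusted *p* = 0.083), or 0.771-fold with a 95% interval from 0.654-fold to 0.907-fold. *LYP1* passed the threshold with DESeq2 (adjusted *p* = 0.0033), and in edgeR with library totals in place of TMM factors (adjusted *p* = 0.018) or without mutant replicate 1 (adjusted *p* = 0.025).

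*LYP1* is the only member on chromosome XIV. Of the 407 genes tested on this chromosome, 95.1% had a log2 fold change below 0, with a median of -0.53 (-0.66 and -0.39 at the quartiles), and 57.2% were called, all of them lower in the mutant. *LYP1* was 0.27, 0.50 and 0.36 below the wild-type mean (log2) in mutant replicates 1, 2 and 3, where the chromosome's median was 0.52, 0.55 and 0.53 below it. On this chromosome 76.2% of the genes tested had a lower log2 fold change than *LYP1*. With an offset per sample that removes the median shift of chromosomes XIV and VI, the log2 fold change of *LYP1* was 0.16 (adjusted *p* = 0.47 from edgeR). The difference between the strains in *LYP1* was thus smaller than the median difference of its chromosome, and relative to that median it pointed the other way without passing the test. The neighbouring *ALP1* (YNL270C), divergently transcribed 888 bases away, had 38, 51 and 61 counts in the mutant, against 70, 80 and 84 counts in wild type. Its log2 fold change was -0.77 with a standard error of 0.20 (edgeR adjusted *p* = 0.069), and -0.24 with the offset.

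**Figure D3:**
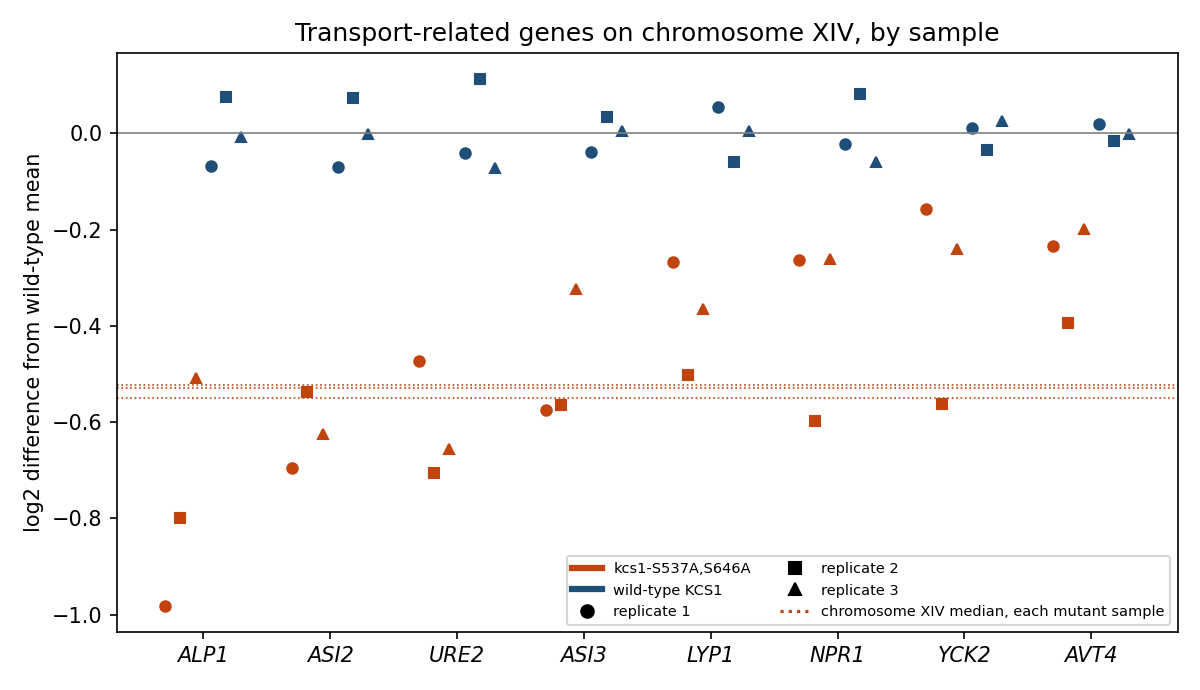
Log2 difference from the wild-type mean for the 8 listed genes of chromosome XIV, in *kcs1*-S537A,S646A samples (orange, left) and wild-type *KCS1* samples (blue, right), 1 symbol per replicate, with dotted lines at the chromosome's median in each mutant sample. All mutant values lie below all wild-type values, and those of *LYP1*, at -0.27, -0.50 and -0.36, lie above the dotted lines. Of all genes tested, 14.8% lay below wild type in all mutant samples. Of those on chromosome XIV, 95.1% had a log2 fold change below 0.

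In CPM after TMM scaling, mutant replicate 1 gave the highest of the 3 mutant values for 9 of the 10 members, all but *BAP3*, and for 32.9% of all genes tested. This library had the lowest TMM factor, 0.9328, on which the count depends. Its lead was small for *AGP1* (55.0 against 53.9 CPM in mutant replicate 2) and *CAN1* (372.4 against 369.7 CPM in mutant replicate 3). The lead was also small for *GAP1* (2617 against 2537 CPM in mutant replicate 3). The standard deviation of the CPM was 40.2% of the mean for *DIP5* and 41.1% for *BAP2* in the mutant, against 13.7% and 19.2% in wild type. *GAP1* and *AGP1* had the smallest spreads in the mutant, 5.48% and 3.39%, against 7.32% and 10.1% in wild type. The part that this library's low chromosome VI had in these levels was not tested, and no member lies on that chromosome.

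Another list of 10 amino acid permeases held 1 called gene, *MUP3*, and had a median log2 fold change of -0.19. Of all genes tested, 5.66% were called, 0.986% higher in the mutant, and the median was 0.015. *MUP3* (YHL036W), a low-affinity methionine permease on chromosome VIII, rose in the mutant, with 68.4, 83.6 and 139.0 CPM against 48.8, 38.8 and 48.5 CPM in wild type. All mutant samples lay above all wild-type samples, as in 11.8% of all genes. The log2 fold change was 1.10 (standard error 0.25, edgeR adjusted *p* = 0.043). The call held in 8 of 15 alternatives, and was lost when any of the 3 wild-type samples was left out (adjusted *p* between 0.14 and 0.19), and without genes of chromosomes XIV and VI (0.12). The high-affinity methionine permease *MUP1* had 125.4, 77.2 and 149.8 CPM in the mutant, against 173.2, 162.8 and 174.1 CPM in wild type, a log2 fold change of -0.53 that did not pass the test (adjusted *p* = 0.21 from edgeR). The proline permease *PUT4*, the histidine permease *HIP1*, the S-methylmethionine and S-adenosylmethionine permeases *MMP1* and *SAM3*, *AGP2*, *AGP3*, *ALP1* and the GABA permease *UGA4* had log2 fold changes between -0.77 and 0.24. None of these 8 passed the test. *AGP3*, on chromosome VI, had -0.37, and -0.09 with the offset for chromosomes XIV and VI.

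The genes that sense amino acids and control permease transcription held 3 called genes, and all 3 lie on chromosome XIV. On that chromosome 57.2% of the genes tested were called, and 4.67% of all genes tested were called lower. In the SPS pathway, 2 of 12 genes were called, both lower, and the list's median was -0.06. They were *ASI2* (log2 fold change -0.62, adjusted *p* = 0.0056 from edgeR) and *ASI3* (-0.48, adjusted *p* = 0.020), which encode inner nuclear membrane proteins that keep uncleaved Stp1 and Stp2 from acting. *ASI2* had 41.3, 46.1 and 43.3 CPM in the mutant, against 63.7, 70.4 and 66.8 CPM in wild type. All its mutant values lay below all its wild-type values, as in 14.8% of all genes. The sensor gene *SSY1* had a log2 fold change of 0.11, the protease gene *SSY5* 0.05, and *STP1* and *STP2* had -0.07 and 0.10, with no adjusted *p*-value under 0.48. *PTR3*, the remaining sensor gene, lies on chromosome VI and had -0.04 (edgeR adjusted *p* = 0.93). With the offset for chromosomes XIV and VI, *PTR3* had 0.21 (edgeR adjusted *p* = 0.31). Of the 4 GATA factor genes and *URE2*, 1 was called, *URE2*, whose product holds Gln3 in the cytoplasm. *URE2* had 119.3, 101.5 and 105.0 CPM in the mutant, against 161.0, 179.0 and 157.5 CPM in wild type, a log2 fold change of -0.61 (adjusted *p* = 0.0092 from edgeR). *GLN3*, *GAT1* and *GZF3* had log2 fold changes of 0.24, 0.10 and 0.07, and *DAL80* had -0.32 (edgeR adjusted *p* = 0.20). None of these 4 genes passed. *GAT1* lies on chromosome VI, and with the offset for chromosomes XIV and VI it had 0.425 (edgeR adjusted *p* = 0.301). With the offset for chromosomes XIV and VI, none of *ASI2*, *ASI3* and *URE2* passed, and their log2 fold changes were -0.09, 0.05 and -0.08. The call of *ASI3* was also lost without any of the wild-type samples (adjusted *p* between 0.084 and 0.11), and that of *URE2* without wild-type replicate 1 (0.053) or 2 (0.061).

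In the list of genes for permease export, stability and ubiquitination, 0 of 10 passed in edgeR, 1 with DESeq2 and 0 with limma-voom. Over all genes tested, edgeR called 5.66% and DESeq2 579 of 6069. At an unadjusted *p*-value under 0.05 from edgeR the list had 2 genes, against 20.1% of all genes. *SHR3*, an endoplasmic reticulum factor that amino acid permeases need to leave that compartment, had a log2 fold change of -0.05, and *RSP5*, the ubiquitin ligase that sends permeases to degradation, had 0.01. *NPR1*, a kinase that protects Gap1 from removal, lies on chromosome XIV and had -0.37 (adjusted *p* = 0.10 from edgeR). With the offset for chromosomes XIV and VI, *NPR1* had 0.165 (edgeR adjusted *p* = 0.45). The other gene with an unadjusted *p*-value under 0.05 was *ERV14*, on chromosome VII, with -0.24 (edgeR adjusted *p* = 0.14). All mutant samples of *ERV14* lay below all wild-type samples, as in 14.8% of all genes.

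**Figure D4:**
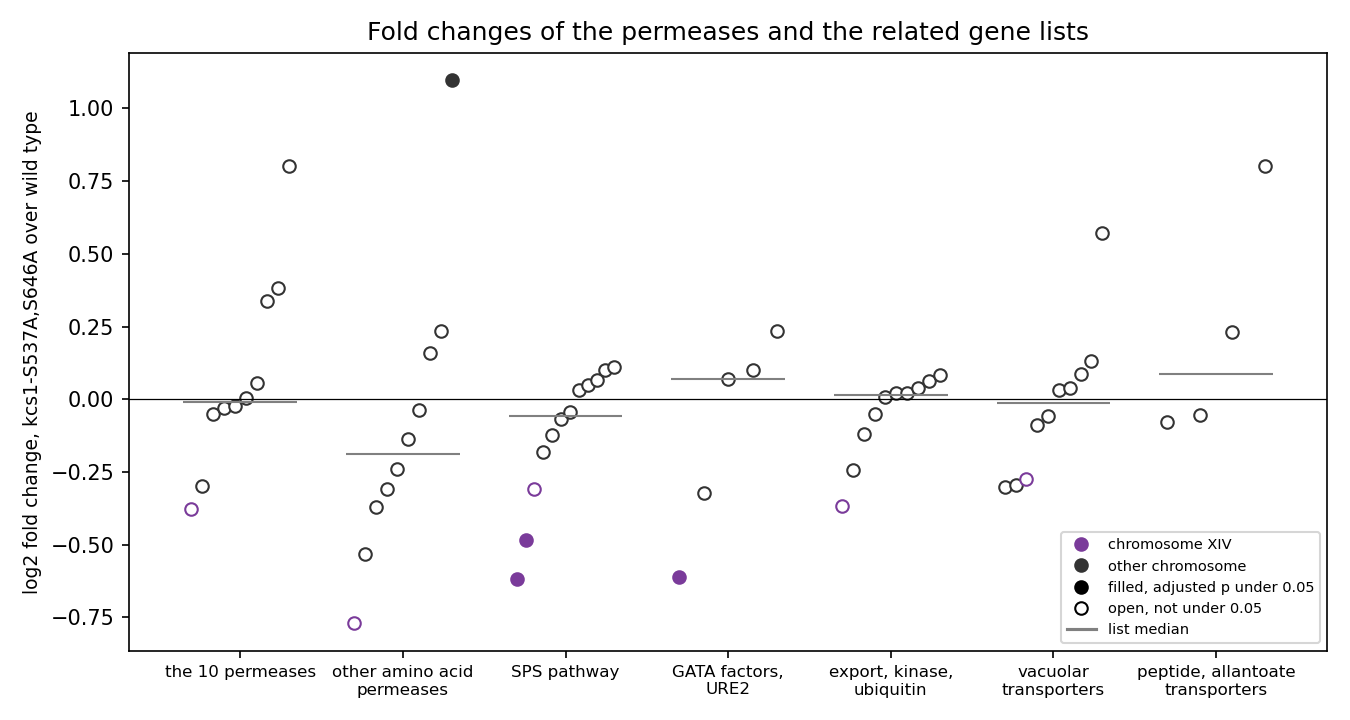
Log2 fold changes of *kcs1*-S537A,S646A over wild type for the 10 permeases and 6 related lists, 61 genes in all, with 1 point per gene, filled where the adjusted *p*-value was under 0.05, purple for chromosome XIV, and a grey line at each list's median. The called genes are *MUP3* above 0 and *ASI2*, *ASI3* and *URE2* on chromosome XIV below 0.

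Over the 10 permeases and the 6 related lists, 8 of 61 genes lie on chromosome XIV. All 8 had log2 fold changes below 0, from -0.77 to -0.27, and 3 of them were called, against 95.1% below 0 and 57.2% called among all genes tested on this chromosome. Of the 53 genes on other chromosomes, 24 had a log2 fold change below 0, 1 was called, and the median was 0.022. That gene was called higher, as were 0.986% of all genes tested, whose median was 0.015. The 53 include genes of chromosome VI, which was lower as a group in mutant replicate 1.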

How the data were processed

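The authors removed reads with adapters or low quality, mapped the rest with HISAT2 2.0.5 and counted fragments per gene with featureCounts 1.5.0-p3. The deposited counts are not normalized. The deposited FPKM were divided by the authors by gene length and by a depth proportional to the DESeq2 size factor of each sample. FPKM served only for levels between genes, and a table of mean FPKM per strain was not used. The genome build and strand setting are not given in the sources used here. Gene coordinates were identical to the R64 annotation for 5980 of 5988 shared protein-coding genes, including the 10 members, and sequences are from RefSeq R64.

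Differences between the strains were tested on the counts with edgeR 4.0.16 under R 4.3.3 (filterByExpr with a minimum of 10 counts, 6083 genes kept, TMM, glmQLFit and glmQLFTest, 2-sided, Benjamini-Hochberg adjustment over all genes tested, threshold 0.05). Standard errors were derived from the log2 fold change and its F statistic, and 95% intervals use the fit's degrees of freedom without adjustment. Log2 differences from the wild-type mean use a prior count of 2. Depth per sample was between 17950923 and 22701020 counts. Alternatives were DESeq2 1.42.0 and limma-voom (limma 3.58.1) as tests, other scalings and filters, a replicate block, each sample left out, and the removal or offset of chromosomes XIV and VI. The code was tested on simulated data.

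The members, lists and alternatives were chosen with earlier results of these data known. Named genes are the 10 members, called genes of the other lists and genes adjacent to a member. *MUP1*, *SSY1*, *PTR3*, *SSY5*, *STP1*, *STP2*, *GLN3*, *GAT1*, *GZF3*, *DAL80*, *SHR3*, *RSP5* and *NPR1*, and the other amino acid permeases given as a range, were named for their roles after their values were seen. *ERV14*, *STE4* as a called marker, and the genes of the closing section were also named after their values were seen, some of them for those values.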

Additional observations from a re-analysis of the deposited data

How the results depend on the processing

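Across the alternatives, the number of all genes called was 579 with DESeq2, 16 without genes of chromosomes XIV and VI, 19 with an offset for these chromosomes, and between 84 and 481 with each sample left out, with 96, 84 and 122 without wild-type replicates 1, 2 and 3. Of the 10 permease genes, 2 were called with DESeq2, 1 with library totals, and between 0 and 1 with each sample left out. *LYP1* had a log2 fold change of -0.44 with library totals, -0.375 with DESeq2, 0.158 with the chromosome offset, and between -0.44 and -0.32 with each sample left out, and it has no value without chromosomes XIV and VI. *DIP5* had 0.803 with DESeq2, and between 0.42 and 0.99 with each sample left out. *BAP3* and *TAT2*, near 0 in the report, changed sign: *BAP3* was -0.007 with library totals, *TAT2* was -0.065 with library totals and -0.017 without genes of chromosomes XIV and VI. The called gene *ASI3* (-0.48) was 0.051 with the offset and no longer called. With each sample left out, the log2 fold change lay between -0.067 and 0.036 for *GAP1*, -0.421 and 0.136 for *BAP2*, -0.169 and 0.245 for *BAP3*, -0.106 and 0.128 for *TAT2*, and -0.107 and 0.043 for *CAN1*. The cause was not tested.

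Calls among the other amino acid permeases were 0 with library totals, limma-voom, the offset or without chromosomes XIV and VI, 2 with DESeq2, and between 0 and 2 with each sample left out. The SPS pathway had 0 with the offset or without both chromosomes and between 1 and 2 with a sample left out, and the GATA factors with *URE2* had 0, 0 and between 0 and 1. The export and ubiquitin list had 1 with library totals and 1 with DESeq2. The vacuolar transporters had 1 with library totals, 3 with DESeq2 and between 0 and 1 with a sample left out. Library totals moved the median log2 fold change of all genes by -0.063.

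Deviations of same-numbered samples from their group means had correlations of -0.133, 0.024 and 0.336 across genes. Those of differently numbered samples lay between -0.256 and 0.258. The pair of replicates 3 was the highest of all, but replicates 1 and 2 did not deviate together, so the samples were taken as unpaired. A replicate block gave 282 calls in all and 0 among the 10 permease genes, with a log2 fold change of 0.739 for *DIP5*. *TAT1* and *BAP3* had the lowest depth of the 10 genes, 73 to 173 counts per sample.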

Other observations

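Amino acid transporters of the vacuole, which move amino acids between this store and the cytosol, held 0 called genes of 10 in edgeR, 4 at an unadjusted *p*-value under 0.05, 3 with DESeq2 and 0 with limma-voom. Of all genes tested, edgeR called 5.66%, 20.1% had an unadjusted *p*-value under 0.05, and DESeq2 called 579 of 6069. The highest log2 fold change was that of *VBA1*, a transporter that carries basic amino acids into the vacuole, with 1157, 773.8 and 933.4 CPM in the mutant, against 699.0, 654.7 and 572.9 CPM in wild type. All mutant samples lay above all wild-type samples, as in 11.8% of all genes (log2 fold change 0.57, standard error 0.16, adjusted *p* = 0.091 from edgeR). Its relative *VBA2* had 68.2, 69.2 and 67.3 CPM in the mutant, against 84.6, 79.3 and 87.2 CPM in wild type. The groups of *VBA2* stood apart in the other direction, as in 14.8% of all genes (log2 fold change -0.29, adjusted *p* = 0.056 from edgeR). *AVT6* and *AVT4*, the latter on chromosome XIV, also lay below wild type in all mutant samples. Their log2 fold changes were -0.30 and -0.27 (edgeR adjusted *p* = 0.12 and 0.13).

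Among the peptide and allantoate transporters, 0 of 4 genes were called in edgeR and 0 at an unadjusted *p*-value under 0.05, with DESeq2 or with limma-voom. The allantoate permease gene *DAL5* had 2600.5, 1723.6 and 2251.1 CPM in the mutant, against 2069.1, 1913.4 and 1618.1 CPM in wild type. Its groups overlapped, and the log2 fold change of 0.23 did not pass (adjusted *p* = 0.51 from edgeR). *PTR2*, a di- and tripeptide transporter gene that the SPS sensor also controls, had 160.5, 45.3 and 82.8 CPM in the mutant, against 61.8, 57.7 and 45.7 CPM in wild type. Mutant replicate 1 was the highest sample and mutant replicate 2 the lowest, and the log2 fold change of 0.80 did not pass (adjusted *p* = 0.31 from edgeR).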
